A study of Mus musculus with 8 samples.

Results

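The 9 genes described here encode scavenger receptors and receptors for apoptotic cells, and they were chosen by symbol, namely Msr1, Marco, Cd36, Cd163, Scarb1, Stab1, Axl, Mertk and Timd4. All 9 were listed in both of the deposited tables, which held 55450 and 24848 genes. Macrophages and dendritic cells use such receptors to clear modified lipoproteins, haemoglobin complexes and dying cells. Class A and B scavenger receptors and stabilin-1 bind polyanions, oxidized lipids and lipoproteins. The receptor tyrosine kinases AXL and MERTK bind phosphatidylserine on dying cells through the bridging proteins GAS6 and protein S, and TIM-4 binds it directly. In dendritic cells AXL and MERTK are also known to dampen inflammatory signaling.

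The cells were cultured from marrow of dry eye (Sjögren's syndrome) mice, so vehicle and treated cells share that disease background. One group received phosphate-buffered saline (vehicle) and the other recombinant S100A8/A9, a heterodimer that myeloid cells release and that binds calcium, with 4 libraries in each. Strain, age, dose and duration are not given in the sources used here, nor whether replicates came from separate animals. Poly(A) RNA was sequenced, and the deposited values were FPKM, in which fragment numbers are divided by gene length and sequencing depth, which allows levels of different genes to be compared. Replicates 1 to 3 of both groups stood in 1 table and replicate 4 of both groups in a second table made separately, so tests used replicates 1 to 3 and replicate 4 stands beside them. In replicate 4 the values implied 31900000 reads with vehicle and 33400000 with S100A8/A9, while the depth of replicates 1 to 3 was not recovered. The labels call the cells dendritic cells, although the sample titles carry an abbreviation usual for macrophages. Over replicates 1 to 3 the dendritic cell genes H2-Ab1 and Itgax were at 327 to 671 and 47.2 to 66.9 FPKM, Zbtb46 at 2.13 to 3.62 FPKM and Flt3 at no more than 0.921 FPKM. Of 5 listed genes of conventional type 1 dendritic cells, Xcr1 and Clec9a, which define these cells, reached at most 0.108 and 0.289 FPKM. The others, Irf8, Batf3 and Cadm1, were at 29.0 to 51.3, 6.97 to 12.3 and 3.29 to 7.62 FPKM. Of 5 listed genes of conventional type 2 dendritic cells, Cd209a was listed at 0 and Clec10a was at 3.01 to 5.90 FPKM. Irf4 was at 18.2 to 31.2 FPKM, and Mgl2 and Sirpa were at no less than 85.9 and 142 FPKM. The macrophage genes Adgre1 and Csf1r were at 26.2 to 53.0 and 109 to 213 FPKM.

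Of the 9 receptors, 6 were expressed well above 1 FPKM in replicates 1 to 3 and 3 were near or at 0 there. In order of mean level over replicates 1 to 3, these were Cd36, Msr1, Axl, Stab1, Scarb1 and Mertk, followed by Cd163, Marco and Timd4. Marco exceeded 1 FPKM only in the separate table of replicate 4, at 2.33 FPKM in vehicle and 3.37 FPKM with S100A8/A9. Cd36 lay above Msr1 in 6 of 6 libraries with no overlap of their ranges. Msr1 and Axl overlapped, and so did Stab1 and Scarb1. Mertk lay below Scarb1 in all 6 libraries, its highest value of 23.8 FPKM being under the lowest value of Scarb1, 27.7 FPKM. Cd36 was higher than 98.7% of the 11387 genes tested in the vehicle libraries, Msr1 than 96.1%, Axl than 95.6%, Stab1 than 90.1%, Scarb1 than 89.2% and Mertk than 75.0%. None of the 6 passed the test for a difference between S100A8/A9 and vehicle. Axl, Mertk and Msr1 differed between the replicate numbers 1 to 3 in both groups alike, by up to 2.83-fold for Mertk, and Cd36, Stab1 and Scarb1 did not pass that test.

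**Figure D1:**
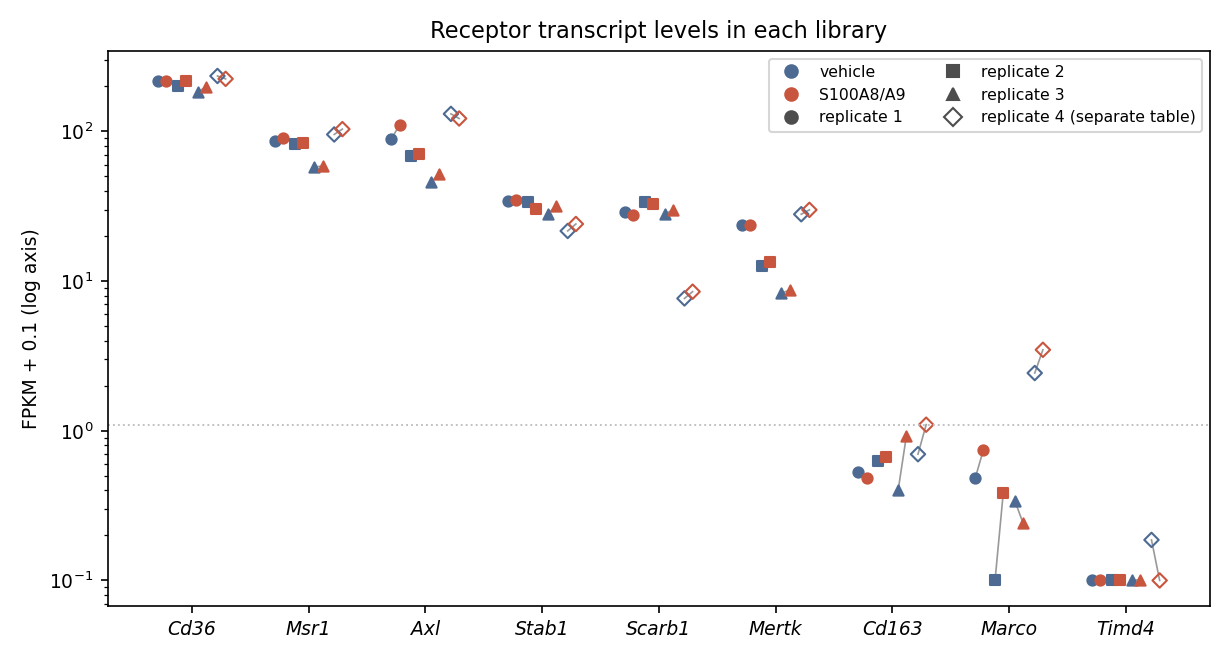
FPKM + 0.1 of each receptor on a log axis, 1 point per library, with vehicle in blue and S100A8/A9 in red, pairs of the same replicate number joined by a line, and open diamonds for replicate 4 from the separate table. The dotted line marks 1 FPKM. The 2 points of a pair lie close together for the 6 expressed receptors, while Mertk spans 8.197 to 23.8 FPKM between pairs of replicates 1 to 3.

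Cd36 encodes a class B scavenger receptor that takes up oxidized lipoprotein and long-chain fatty acids. It lies on the reverse strand of mouse chromosome 5 from 17781690 to 17888801 in mm10. In vehicle replicates 1 to 3 it was at 217, 202 and 183 FPKM, and with S100A8/A9 at 217, 216 and 198 FPKM. The groups overlapped, and the lowest value of each group came from replicate 3. Means were 201 ± 17.3 FPKM in vehicle and 210 ± 10.8 FPKM in treated libraries (SD, n = 3 per group). The difference on the log2(FPKM + 1) scale was 0.07 ± 0.11 in the fit by group, which ignores replicate numbers (SE; adjusted p = 0.9998, limma). With the replicate number added as a block, the SE was 0.053 and the adjusted p 0.840 in limma. Adjusted p-values in the report are from limma over all 11387 genes, unless another filter or set of libraries is named. Those for treatment are two-sided, and those for the replicate number come from F tests. Of all genes tested, 0% were called in the fit by group and 0.518% with the block, and the 6 receptors had 0 calls in both. Of all genes, 4.71% had every treated library above every vehicle library and 1.94% the reverse, against 0 of the 6 receptors in either direction. In the separate table Cd36 was at 234 FPKM in vehicle and 224 FPKM with S100A8/A9, the only pair of the 4 in which the treated library was lower.

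Scarb1 encodes the class B receptor SR-BI, which binds high-density lipoprotein and exchanges cholesteryl esters with it. It spans 125277087 to 125341094 on the reverse strand of chromosome 5. Vehicle replicates 1 to 3 held 28.9, 33.8 and 27.96 FPKM and S100A8/A9 replicates 27.7, 32.8 and 29.7 FPKM. The values overlapped, and replicate 2 was the highest in both groups. The log2 difference was -0.01 ± 0.11 (SE; adjusted p = 0.9998, limma). Adding the block gave an SE of 0.063 and an adjusted p of 0.995 in limma. Replicate 4 held 7.56 FPKM in vehicle and 8.40 FPKM with S100A8/A9, below every library of the first table. The replicate 4 mean was 0.265 times the mean of the other 6 libraries, a level difference across separately normalized tables that was not tested in limma.

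Msr1 encodes the class A scavenger receptor SR-A, a collagen-like trimer that binds acetylated and oxidized lipoprotein and bacterial surfaces. Its gene spans 39581685 to 39642673 on the reverse strand of chromosome 8. Levels were 86.8, 81.9 and 57.9 FPKM in vehicle replicates 1 to 3 and 90.9, 82.9 and 58.4 FPKM with S100A8/A9. The treated library was higher in each pair, including replicate 4 at 95.3 against 103 FPKM, but by ratios of only 1.01 to 1.09, and the groups overlapped. Of all genes tested, 19.4% were higher with S100A8/A9 in each of the 3 pairs. The log2 difference of Msr1 was 0.03 ± 0.21 (SE), and its 95% interval ran from -0.46 to 0.53 without the block and from -0.10 to 0.16 with it. The sign of this difference became negative with quantile normalization or upper-quartile factors.

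Marco encodes the second collagenous class A receptor and binds bacteria and particles. It was at 0.382, 0 and 0.239 FPKM in vehicle replicates 1 to 3 and at 0.643, 0.281 and 0.142 FPKM with S100A8/A9, under the filter of 1 FPKM in at least 3 of 6 libraries, so it was not tested. In the separate table it was at 2.33 FPKM in vehicle and 3.37 FPKM with S100A8/A9, which equalled 143 and 217 reads. Both values were above those of the first table, a level difference across separately made tables that was not tested. The single pair of libraries gives no replicate check.

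Cd163 encodes the receptor for haptoglobin-haemoglobin complexes. It held 0.430, 0.525 and 0.2997 FPKM in vehicle and 0.382, 0.572 and 0.816 FPKM with S100A8/A9 and was not tested. Within pairs the treated library was lower in replicate 1 and higher in replicates 2, 3 and 4, where the separate table gave 0.597 and 0.998 FPKM from 104 and 182 reads. The groups overlapped in replicates 1 to 3. Without the filter the adjusted p was 0.951 for Cd163 and for Marco in limma.

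Timd4 encodes TIM-4, the phosphatidylserine receptor of resident macrophages of the peritoneum and other tissues. It was listed at 0 in all 6 libraries of the first table. In the separate table it was at 0.0866 FPKM with vehicle, or 6 reads, and at 0 with S100A8/A9, where a count of 0 allows up to 3 reads or 0.0413 FPKM, counting error only.

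Stab1 encodes stabilin-1, a large receptor of macrophages and sinusoidal endothelium that clears modified lipoprotein and extracellular proteins and binds phosphatidylserine. It spans 31139013 to 31168641 on the reverse strand of chromosome 14. Vehicle replicates 1 to 3 were at 34.3, 33.8 and 28.1 FPKM and treated replicates at 34.6, 30.3 and 31.7 FPKM. The pairs differed in direction, with ratios of 1.01, 0.897 and 1.13, and the groups overlapped. The log2 difference was 0.01 ± 0.11 (SE; adjusted p = 0.9998, limma). Adding the block gave an SE of 0.077 and an adjusted p of 0.992 in limma. The difference turned negative when libraries were scaled to a common sum, with quantile normalization and with upper-quartile factors. Replicate 4 held 21.5 FPKM in vehicle and 23.96 FPKM with S100A8/A9.

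Endothelial cells can express Stab1, Cd36 and Scarb1, and platelets Cd36, so markers of both stand beside these values. The 6 endothelial markers summed to 20.2 to 25.4 FPKM in vehicle and 21.2 to 27.6 FPKM with S100A8/A9 in replicates 1 to 3. Of them 3 passed the filter, with Vwf at 8.90 to 15.6, Kdr at 4.84 to 7.41 and Pecam1 at 3.52 to 4.66 FPKM. Cdh5 was at no more than 0.707 FPKM, and Tek and Emcn were listed at 0 in 4 and 5 of the 6 libraries. The 6 megakaryocyte and platelet markers, of which 4 passed the filter, summed to 33.4 to 81.6 FPKM and 41.9 to 85.6 FPKM, most of it from Pf4, with Gp6 at no more than 0.102 FPKM. The 5 adipocyte markers summed to 7.23 to 15.2 FPKM in vehicle and 8.65 to 19.9 FPKM in treated libraries. Nearly all of this was Fabp4, a fatty acid carrier that macrophages also express, at 6.76 to 19.3 FPKM. Fabp4 was the only one to pass the filter, was higher with S100A8/A9 in each of the 3 pairs and differed between replicate numbers (adjusted p = 0.00494, limma), while Cidec and Lep were at 0. These markers' part in the receptor levels was not tested.

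Axl was the receptor with the largest treatment difference of the 6, and it did not pass the test. Its gene spans 25757273 to 25788705 on the reverse strand of chromosome 7, and the gene is known to be inducible by type I interferon in dendritic cells. Vehicle replicates 1 to 3 were at 89.2, 68.1 and 45.8 FPKM and treated replicates at 110, 70.7 and 51.8 FPKM. The treated library was higher in these 3 pairs, by 1.24-fold, 1.04-fold and 1.13-fold, and lower in replicate 4, at 131 FPKM with vehicle against 122 FPKM. The spread within each group was wider than the difference, with means of 67.7 ± 21.7 and 77.6 ± 29.8 FPKM (SD, n = 3 per group). The log2 difference was 0.18 ± 0.32 (SE; adjusted p = 0.9998, limma). With the block its SE was 0.066 and its 95% interval 0.02 to 0.34, with an unadjusted p of 0.0341 and an adjusted p of 0.560 in limma. This interval spanned 0 with quantile normalization (-0.03 to 0.25), with all 8 libraries (-0.05 to 0.27) and without replicate 1 or 3. It stayed above 0 with a common sum, a pseudocount of 0.1, no filter, or without replicate 2. In the fit by group the direction turned without vehicle replicate 3, at -0.07, and without S100A8/A9 replicate 1, at -0.11. Any link of Axl to a list of 12 interferon-stimulated genes was not tested, and that list was chosen with earlier results of these data known. In the fits of replicates 1 to 3 these genes had a median log2 difference of 1.41. With the block 10 of the 12 were called, against 0.518% of all genes, and without it 0, against 0%. Their treated-to-vehicle ratios were 1.56 to 5.49 in replicates 1 to 3 and 0.796 to 1.78 in replicate 4, where 9 of the 12 were higher with S100A8/A9 and 3 lower. With all 8 libraries and the block, limma called 0 genes of any kind, with 931 at an unadjusted p under 0.05, so these 10 calls were lost.

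Mertk lies on chromosome 2, forward strand, from 128698956 to 128802894. It was at 23.8, 12.5 and 8.197 FPKM in vehicle replicates 1 to 3 and at 23.7, 13.3 and 8.60 FPKM with S100A8/A9. Within pairs the ratios were 0.997, 1.07 and 1.05, and replicate 4 gave 27.8 and 29.8 FPKM, a ratio of 1.07. The 2 libraries of a pair were nearly equal, while both groups ran from about 8 to 24 FPKM. The log2 difference was 0.05, with a 95% interval from -0.96 to 1.05 without the block and from -0.11 to 0.21 with it. Quantile normalization and upper-quartile factors gave differences just below 0.

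**Figure D2:**
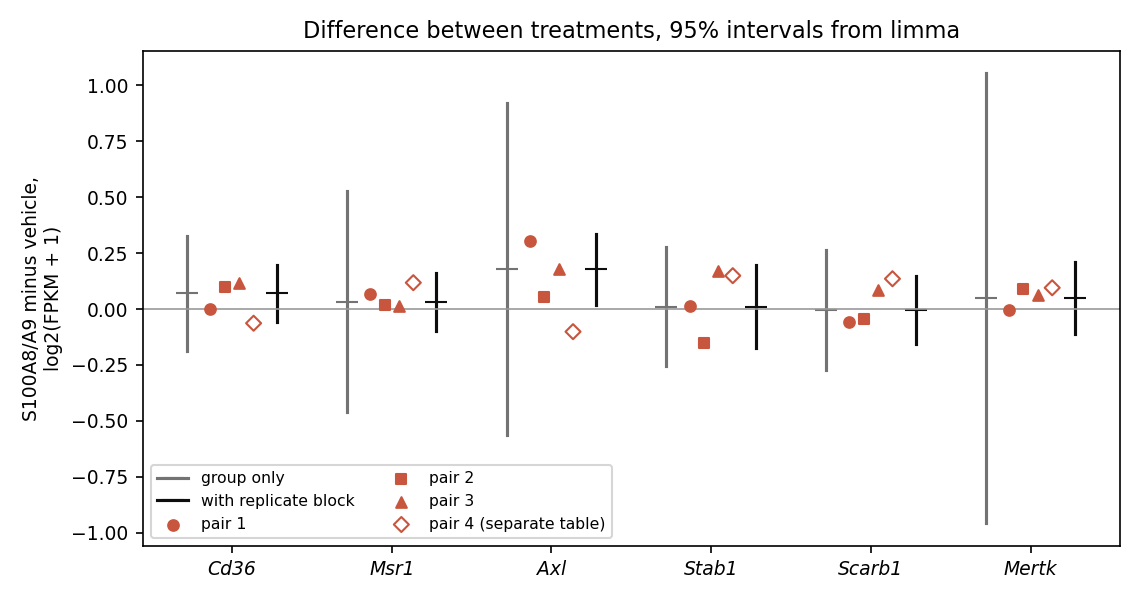
Difference between S100A8/A9 and vehicle in log2(FPKM + 1) for the 6 receptors tested, with 1 point per pair of the same replicate number, open diamonds for the pair of the separate table, and bars for the limma estimate with its 95% interval from replicates 1 to 3, without the block in grey and with it in black. Each interval without the block spans 0, and with the block only that of Axl lies above 0, from 0.02 to 0.34.

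The promoter windows of the class B receptor Cd36 and of the kinases Axl and Mertk are shown because Cd36 was the most abundant receptor and Axl and Mertk varied together across the cultures. RefSeq entries matched 7 of the 9 receptors, and Msr1 and Scarb1 had none. Each window holds 250 bases before and 50 bases after the annotated start, in GRCm38.p6, 5′ to 3′ on the gene's strand. The start that RefSeq gives for Cd36 lies 52905 bases inside the gene span given above, so that window belongs to an internal transcript start, and which start these cells used was not measured. The Axl and Mertk starts lie 28 and 41 bases upstream of their spans. Capitals mark matches on either strand to GGGCGG (the Sp1 box), GAGGAA (a core of PU.1 sites), TGCTGA (a half-site of MAF factors), TGANTCA (AP-1) or a motif resembling the interferon-stimulated response element (GAAA, any 2 bases, GAAA), and no match overlapped another.
Cd36, chr5:17835847-17836146, reverse strand: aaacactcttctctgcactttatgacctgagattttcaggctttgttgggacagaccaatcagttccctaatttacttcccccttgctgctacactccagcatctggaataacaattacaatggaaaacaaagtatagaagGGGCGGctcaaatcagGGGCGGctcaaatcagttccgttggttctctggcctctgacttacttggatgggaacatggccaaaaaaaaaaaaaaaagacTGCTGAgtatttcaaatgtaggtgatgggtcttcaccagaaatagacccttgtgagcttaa
Axl, chr7:25788684-25788983, reverse strand: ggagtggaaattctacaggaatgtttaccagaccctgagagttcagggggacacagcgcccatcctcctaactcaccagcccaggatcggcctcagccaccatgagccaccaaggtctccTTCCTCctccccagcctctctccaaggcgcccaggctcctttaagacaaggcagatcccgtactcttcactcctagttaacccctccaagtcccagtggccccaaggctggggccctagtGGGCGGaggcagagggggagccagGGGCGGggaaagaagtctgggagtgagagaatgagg
Mertk, chr2:128698665-128698964, forward strand: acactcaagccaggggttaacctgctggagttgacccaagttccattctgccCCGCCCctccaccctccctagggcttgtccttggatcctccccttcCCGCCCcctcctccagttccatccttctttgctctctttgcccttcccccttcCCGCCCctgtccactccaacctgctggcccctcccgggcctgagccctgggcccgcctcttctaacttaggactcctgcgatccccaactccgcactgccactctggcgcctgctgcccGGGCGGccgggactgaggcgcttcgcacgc
The Mertk window held 4 Sp1 boxes, 14 CpG dinucleotides and 66% G and C. The Axl window held 2 Sp1 boxes, 1 PU.1 core starting at position -130, 6 CpG dinucleotides and 60.3% G and C. The Cd36 window held 2 Sp1 boxes and 1 MAF half-site, with 3 CpG dinucleotides and 43% G and C. Of all 32851 promoter windows, 35.7% held an Sp1 box, 28.3% a PU.1 core, 19.5% a MAF half-site, 7.8% the AP-1 letters and 3.4% the motif resembling the interferon-stimulated response element, and the median window had 52.7% G and C. These matches are descriptions of letters and were not tied to the expression values.

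Across the cultures, libraries of the same number resembled each other, and the receptors split into those that varied between numbers and those that did not pass. With group and replicate number in 1 limma fit, the F test of the replicate number called 12.7% of the 11387 genes and 3 of the 6 receptors. These were Mertk (adjusted p = 0.00107), Axl (0.00300) and Msr1 (0.00627), from limma. Each was highest in replicate 1, intermediate in replicate 2 and lowest in replicate 3 in both groups, and the labels do not say what the numbers mark. This order without overlap held for 4.95% of all genes and for 4 of the 6 receptors, Cd36 being the fourth. Mean FPKM of the 2 libraries in replicate 1 was 2.83 times that of replicate 3 for Mertk, 2.04 times for Axl and 1.53 times for Msr1. On the log2(FPKM + 1) scale the replicate means of Mertk spanned 1.40, against a largest within-pair difference of 0.09. The span was 1.01 against 0.30 for Axl and 0.60 against 0.07 for Msr1.

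Cd36, Scarb1 and Stab1 did not pass the replicate test, with adjusted p-values of 0.174, 0.150 and 0.340 in limma. Their replicate means spanned 0.19, 0.23 and 0.20 on the log2 scale, against largest within-pair differences of 0.11, 0.08 and 0.17. Scarb1 was highest in replicate 2, unlike the 5 other receptors tested. Without the filter on low values 0 receptors were called between replicate numbers, with adjusted p-values of 0.0544 for Mertk, 0.0871 for Msr1 and 0.0887 for Axl in limma, and the call of Msr1 was lost without replicate 3 (0.248).

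Marker genes moved with the replicate number as well, and their part in the receptor pattern was not tested. A list of 8 macrophage markers that holds none of the receptors summed to 7869 and 7977 FPKM in replicate 1 (vehicle, then S100A8/A9), to 6042 and 6301 in replicate 2 and to 5207 and 5584 in replicate 3. Lyz2 made up most of each sum, at 5013 FPKM in vehicle replicate 1. All 8 passed the filter and the F test, 7 of them higher in replicate 1 than in replicate 3 and Cd14 lower, and none was at 0. Beside this count and those of the next lists, the F test called 12.7% of all genes tested. The 12 neutrophil markers, of which 5 passed the filter, summed to 124 and 125 FPKM, 126 and 134 FPKM, and 233 and 225 FPKM. All 5 passed the F test, S100a8, S100a9 and Mmp9 being lower in replicate 1 than in replicate 3 and Mmp8 and Csf3r higher, and S100a8 alone ran from 9.72 to 125 FPKM in vehicle. The 7 erythroid markers, of which 4 passed, summed to 3.21 and 4.63 FPKM, 9.42 and 7.58 FPKM, and 129 and 115 FPKM, and these 4 were all lower in replicate 1 than in replicate 3 and passed the F test. The 9 dendritic cell markers, of which 6 passed, summed to 5404 and 5433 FPKM, 3881 and 3920 FPKM, and 3567 and 3851 FPKM, most of it from Cd74. Of these 6 markers 5 were called by the F test, 4 of them higher in replicate 1 than in replicate 3 and Ccr7 lower. In such bulk samples, fewer cells of a type and less RNA per cell cannot be told apart.

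**Figure D3:**
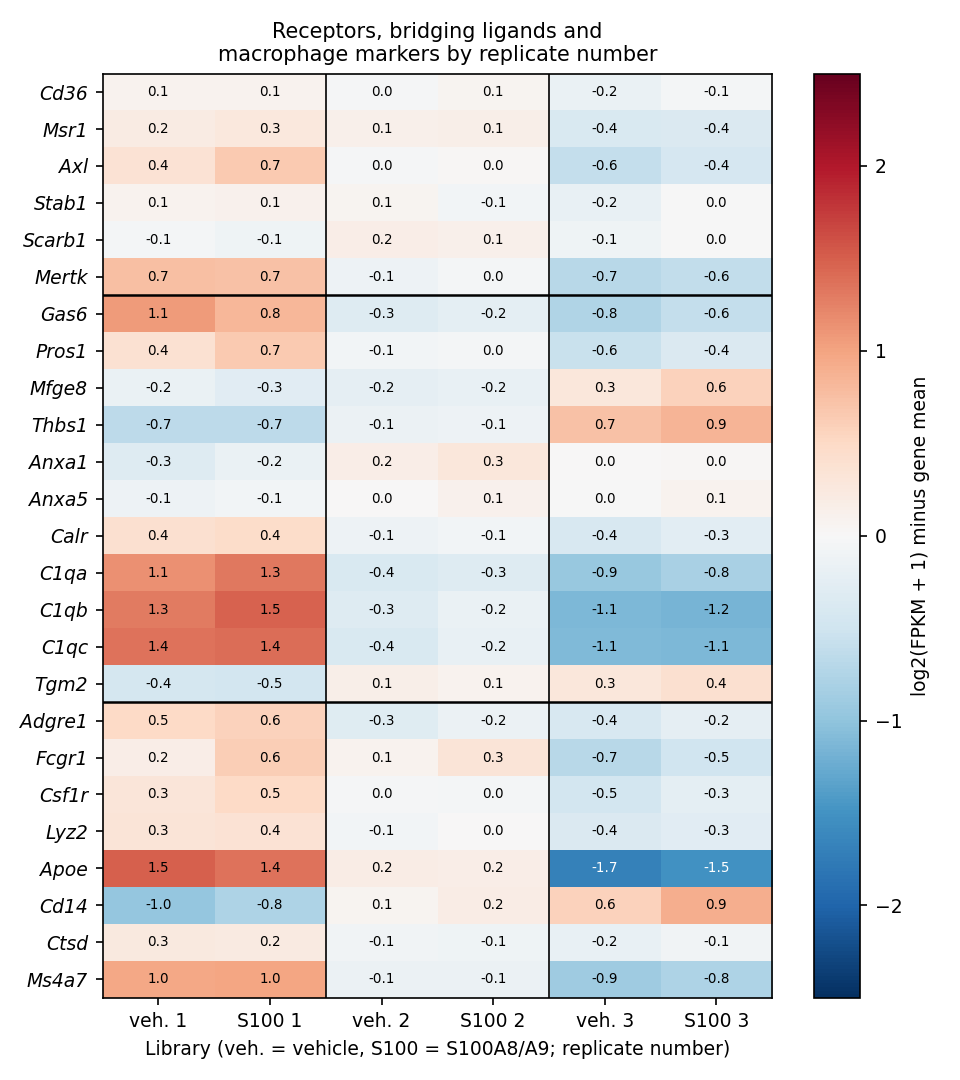
Log2(FPKM + 1) minus each gene's mean over the 6 libraries of replicates 1 to 3, for the 6 receptors tested (top), 11 bridging and opsonizing ligands (middle) and 8 macrophage markers (bottom), with columns ordered by replicate number. The 2 columns of a number resemble each other, and Mertk, Axl and Msr1 share high values in replicate 1 and low values in replicate 3 with Gas6, Pros1, Calr and the 3 C1q genes.

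Ligands that bridge or opsonize dying cells, for these receptors or for others, varied between replicate numbers too. Of 11 bridging and opsonizing genes tested, 10 were called by the F test, against 12.7% of all genes, 6 of them higher in replicate 1 than in replicate 3 and 4 lower. Gas6, the ligand of AXL and MERTK, was at 10.9, 3.55 and 2.36 FPKM in vehicle replicates 1 to 3 and at 9.13, 3.81 and 2.74 FPKM with S100A8/A9. Pros1, which encodes protein S, was at 3.70, 2.43 and 1.43 FPKM and at 4.64, 2.48 and 1.79 FPKM. Among replicates 1 to 3, both ligands were highest in replicate 1, as were Mertk and Axl. In the separate table of replicate 4, Gas6 was at 6.38 FPKM in vehicle and 5.97 FPKM with S100A8/A9, and Pros1 at 7.33 and 7.63 FPKM. Mertk, Axl and Pros1 were above their replicate 1 values there, and Gas6 was below its own. These level differences run across separately made tables, where library and table cannot be told apart, and they were not tested. Adjusted p-values of the F test in limma were 0.00260 for Gas6 and 0.0148 for Pros1. The complement genes C1qa, C1qb and C1qc and the calreticulin gene Calr varied in the same direction.

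Thbs1, which encodes thrombospondin-1, a ligand of CD36 and of integrins, varied the other way, at 111, 157 and 289 FPKM in vehicle and 111, 159 and 316 FPKM with S100A8/A9. Mfge8, whose product bridges phosphatidylserine to integrins, was at 215, 207 and 298 FPKM and 201, 213 and 362 FPKM. Tgm2 and Anxa1 were also lower in replicate 1 than in replicate 3, and Anxa5 did not pass (adjusted p = 0.212, limma).

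Transcripts with the most alike pattern to each receptor were listed by the root mean square difference of centred log2(FPKM + 1) over the 6 libraries, among 6462 genes whose mean reached 5 FPKM. For Mertk these were Klk1b11, Pdia4 and Cd300c2 (0.056 to 0.060). For Axl they were Ms4a6d, Hspa5 and Fabp4 (0.083 to 0.095), and for Msr1 Clec7a, Clec4a1 and Fam20c (0.040 to 0.064). The receptors with flatter profiles had closer matches, which were Il15, Anapc5 and Ak3 for Cd36, Prmt5, Hsd3b7 and Arl6ip4 for Scarb1, and Atp5o, Ciao2a and P2ry6 for Stab1 (0.020 to 0.028 over the 9 genes). The measure describes these 6 libraries, which share their pairing.

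The other genes of the uptake pathway did not pass the treatment test either. Over 8 lists of 92 genes, 80 passed the filter and 0 were called, with or without the block, and the median log2 difference was 0.04, against 0.02 for all genes tested and 0.04 for the 6 receptors. Of these 80 genes, 24 were higher with S100A8/A9 in each of the 3 pairs and 6 lower, against 19.4% and 9.62% of all genes. Of the 6 receptors, 3 were higher in each pair, namely Cd36, Msr1 and Axl, and 0 lower, although the ratio of Cd36 in replicate 1 was 1.00.

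Among 10 other scavenger receptors tested, the median log2 difference was 0.08. The smallest unadjusted p-values were those of Cxcl16, a membrane chemokine that also binds oxidized lipoprotein, at 87.0 ± 4.93 FPKM in vehicle and 95.7 ± 8.38 FPKM in treated libraries (SD, n = 3 per group), and of Ager, the S100 protein receptor RAGE, at 1.12 ± 0.360 and 1.55 ± 0.549 FPKM. Among 9 other apoptotic cell receptors the median was -0.02. Cd300lf, a lipid-binding receptor of myeloid cells, was at 82.5, 82.8 and 81.8 FPKM in vehicle and 98.5, 93.4 and 92.8 FPKM with S100A8/A9. Its groups did not overlap, as was so for 4.71% of all genes in this direction and 1.94% in the other. Over the 8 lists, 4 of 80 genes did so in this direction, namely Cd300lf, Adam17, Npc2 and Elmo1. In the other direction there were 2, Crk and Lrp6. The log2 difference of Cd300lf was 0.20 ± 0.088 (SE; adjusted p = 0.9998, and 0.324 with the block, limma). Trem2, a lipid receptor of macrophages, had ratios of 1.26, 1.40 and 0.851.

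Membrane receptors such as MERTK and AXL are shed from the cell surface by the proteases ADAM10 and ADAM17, the latter with the help of iRhom2, encoded by Rhbdf2. Adam17 was at 31.8 ± 2.65 FPKM in vehicle and 36.1 ± 0.800 FPKM with S100A8/A9, and Rhbdf2 at 24.7 ± 6.01 and 30.7 ± 11.1 FPKM (SD, n = 3 per group). Adam10 went the other way, at 49.0 ± 7.32 and 46.6 ± 8.25 FPKM (SD, n = 3 per group). Its ratios were 0.967, 0.974 and 0.905 in replicates 1 to 3. Adjusted p-values with the block in limma were 0.533 for Adam17, 0.511 for Rhbdf2 and 0.841 for Adam10. Among genes that restrain engulfment, Cd47 was at 39.7 ± 4.36 and 44.2 ± 3.14 FPKM and the phosphatase gene Ptpn6 at 36.4 ± 2.07 and 40.3 ± 2.23 FPKM (SD, n = 3 per group). In the engulfment machinery the smallest p-values belonged to Sgk1 and Vav1, with log2 differences of 0.20 and 0.14, and among ligands to Anxa5 and Anxa1, with 0.09 each. The transcription factor genes Ppard and Nfe2l2 had differences of 0.22 and 0.13, and the lipid handling genes Npc2 and Fabp4 0.15 and 0.25. None of these genes passed the adjusted threshold, with or without the block.

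**Figure D4:**
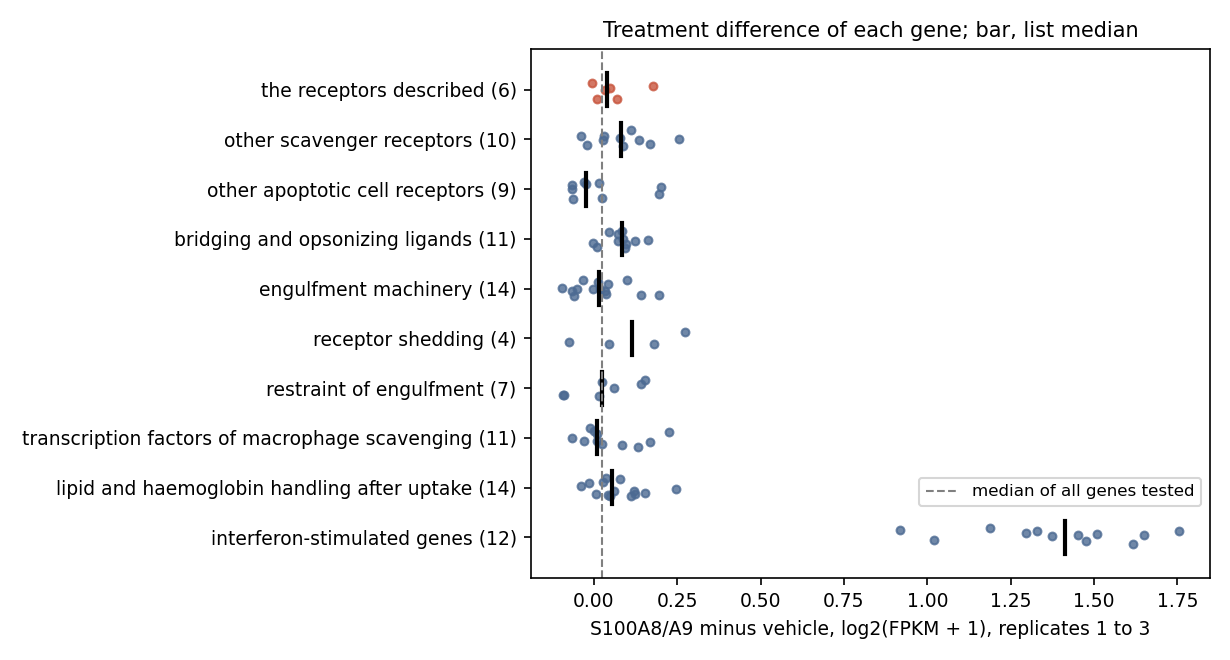
Difference between S100A8/A9 and vehicle in log2(FPKM + 1) over replicates 1 to 3, 1 point per tested gene, with the number tested in parentheses, a black bar for each list's median and a dashed line for the median of all genes tested, 0.02. The receptors and the 8 pathway lists lie around the dashed line, and the interferon-stimulated genes lie to the right with a median of 1.41.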

How the data were processed

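Poly(A) RNA of 8 mouse bone marrow-derived cultures was measured, 4 with vehicle and 4 with S100A8/A9. The authors deposited FPKM by Ensembl identifier; no header or label names the unit, which was read from the values. HISAT2, featureCounts and mm10 appear, with no role given, in the submitters' processing notes. Of low deposited FPKM values (up to 20 reads), 98.55% and 98.77% in replicate 4 came to whole reads (tolerance 0.01 reads) once multiplied by exon length, against 4.62% to 5.76% in replicates 1 to 3, so reads are given for replicate 4 only, and they were not tested as counts. Symbols and positions came from the GENCODE annotation of mm10 and promoters from RefSeq. Values of the series table and the sample tables were equal, and no 2 libraries were identical.

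limma-trend (limma 3.58.1, R 4.3.3) was fitted on log2(FPKM + 1) of replicates 1 to 3 for the 11387 genes that reached 1 FPKM in 3 or more of 6 libraries, with group as the term, and again with the replicate number as a block, whose F test gave the differences between numbers. Calls used a Benjamini-Hochberg adjusted p under 0.05. Same-numbered libraries deviated together from their group means, with correlations over genes of 0.59, 0.25 and 0.52. Other pairs had -0.53 to -0.01, but centring on group means pushes these values below 0, so they add no separate support. Libraries of one number were treated as pairs in the ratios and in the fit with the block. The labels do not say what the numbers mark. The fit by group does not use this pairing, and treatment differences given without mention of the block come from it. The p-values measure the spread between these libraries, which may be technical.

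The receptors and gene lists were chosen with earlier results of these data known. All receptors are named, with, for each list, the called genes or the 2 with the smallest p, and 3 alike genes per expressed receptor. Ligands and markers in the replicate comparison, and Adam10, were named after their values were seen. The fit was tested on simulated data for S100A8/A9 against vehicle, with 200 of 11387 genes changed in each of 5 runs. It recovered 6.3%, 57.6% and 93% of 1.5-fold, 2-fold and 3-fold changes without the block and 81.2%, 99.1% and 99.4% with it. The simulated means and spread were taken from the fit with the block, so its higher recovery was built in. These shares therefore do not show which fit suits the real libraries. The alternatives were another pseudocount, no filter, 3 other scalings, all 8 libraries, the block, and leaving out libraries.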

Additional observations from a re-analysis of the deposited data

Results flagged for a closer look

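In groups of 4 libraries, 1 library stood apart from the others in 2 of 16 tests of the receptors, where chance gives about 1 in 20. That rate need not hold here, as both tests concern Scarb1 and each group joins values of separately made tables. Scarb1 was low in vehicle replicate 4, at 7.56 FPKM, and in S100A8/A9 replicate 4, at 8.40 FPKM. Timd4 is not counted among the 16: it was listed at 0 in the other vehicle libraries, so its value in vehicle replicate 4, 0.0866 FPKM or 6 reads, had to stand apart. All of these libraries come from the separately made table, so the library and the table cannot be told apart.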

How the results depend on the processing

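Under each of 18 alternatives, 0 of the 6 receptors tested and 0 of the pathway genes were called between treatments, so the replicate block changed no call among them. The count over all genes was 0 in the fit by group (limma, with 344 at an unadjusted p under 0.05). It was 59 with the replicate block, 44 with the block and a common sum, and 40, 98 and 7 with the block when replicate 1, 2 or 3 was left out. With the block it was 3 after quantile normalization, 0 without the filter (1371 at an unadjusted p under 0.05) and 0 with all 8 libraries (931). It was 0 to 1 without single libraries, the 1 coming without vehicle replicate 2. Cd36 kept its direction under all 18 (0.0051 to 0.1293 on the log2 scale), and the 5 other receptors did not. With quantile normalization and upper-quartile factors, in that order, Msr1 was at -0.0324 and -0.0251, Stab1 at -0.0647 and -0.0455, and Mertk at -0.0026 and -0.0045. With a common sum Stab1 was at -0.009, with or without the replicate block, and with all 8 libraries Scarb1 was at 0.0293, with or without the replicate block. With the replicate block Scarb1 was at 0.0209 without replicate 1 and 0.0122 without replicate 2, and Stab1 at -0.0689 without replicate 3. Leaving out single libraries gave -0.1459 to 0.22 for Msr1, -0.0689 to 0.0751 for Scarb1, -0.0793 to 0.0606 for Stab1, -0.1073 to 0.4295 for Axl and -0.3101 to 0.4331 for Mertk. The causes were not tested.

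Between replicate numbers, 3 receptors and 1450 genes were called, and 2 or 3 receptors and 331 to 1847 genes when a number was left out. Without the filter the counts were 0 and 18, with 32091 genes tested, and the cause was not tested. With a pseudocount of 0.1, a common sum or quantile normalization the 3 calls stayed. The depth of replicates 1 to 3 is unknown, which leaves Marco, Cd163 and Timd4 without a stated precision there.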

Other observations

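Genes that act after uptake varied between replicate numbers too. Of 14 tested lipid and haemoglobin handling genes, 6 were called by the F test in limma, against 12.7% of all genes tested. Among these 6, 5 were higher in replicate 1 than in replicate 3, and only Hmox1 was lower. Abca1, the cholesterol exporter, was at 35.4, 12.04 and 10.8 FPKM in vehicle replicates 1 to 3 and at 38.4, 12.6 and 12.2 FPKM with S100A8/A9 (adjusted p = 0.000466, limma). Hmox1, the haem-degrading enzyme downstream of CD163, ran the other way, at 278, 410 and 746 FPKM in vehicle and 282, 449 and 867 FPKM with S100A8/A9 (adjusted p = 0.000466, limma), in libraries where Cd163 itself was under 1 FPKM. Mrc1, the mannose receptor, was at 74.97, 33.1 and 12.1 FPKM in vehicle and 74.4, 31.3 and 12.3 FPKM with S100A8/A9. The transcription factor gene Maf was at 8.14, 5.57 and 3.73 FPKM and at 7.88, 4.91 and 4.09 FPKM. These genes were named after their values were seen.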
